A study of Homo sapiens with 12 samples.

Results

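Genes for 10 membrane proteins that bring amino acids into cells were followed in K562 cells treated with ABL kinase inhibitors. The genes were SLC3A2, SLC7A5, SLC7A6, SLC7A11, SLC7A1, SLC43A1, SLC1A5, SLC1A4, SLC38A2 and SLC6A9, 10 of 11963 genes that the array's annotation names. All 22 probe sets that name one of them were taken, of 22215 on the array without controls. A probe set is a group of short oligonucleotides read as 1 value. The filter on low values, a mean level at or above the 40th percentile of all probe sets, was passed by 19 of the 22 and by the brightest probe set of each of the 10 genes.

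K562 is an established human line from a chronic myeloid leukaemia that carries the BCR-ABL1 fusion kinase. Cells were exposed for 24 h to 0.05 µM nilotinib (AMN107), to 0.5 µM imatinib (STI571) or to the solvent DMSO, and total RNA was hybridized to Affymetrix U133 A 2.0 arrays, 4 per group. Nilotinib arrays are replicates 1 to 4, imatinib arrays 5 to 8 and DMSO arrays 9 to 12. The 2 drug doses differed, each labelled as an IC50 without the response it refers to. All groups are 1 cell line. Whether the 4 arrays of a group are separate cultures is not stated, and p-values therefore cover only array-to-array spread, which may be technical. The RNA comes from bulk cells, in which fewer cells with a transcript and less of it per cell cannot be told apart.

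Plasma membrane amino acid transporters belong to several families that differ in cargo and in driving force. The exchangers SLC7A5, SLC7A6 and SLC7A11 reach the membrane as light chains bound to the heavy chain SLC3A2. Sodium-coupled carriers such as those of the SLC38 family fill the cell with small neutral amino acids. Exchangers such as SLC7A5 trade these outwards for leucine and other essential ones. Many of these genes are known targets of ATF4, the transcription factor made when amino acids run short, and some of MYC, and leucine that enters through SLC7A5 is known to keep the growth kinase mTORC1 active.

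The RefSeq promoter table (GRCh38.p14; 250 bases before to 50 after each annotated start) matched 9 of the 10 genes, all but SLC7A11, with 15 windows. Both strands were searched for the ATF4-C/EBP element TGATGNAA, the E-box CACGTG that MYC can bind, and the antioxidant response element TGACNNNGC. The ATF4-C/EBP letters occurred in 4 of the 15 windows, a single window each of SLC1A4, SLC3A2, SLC7A1 and SLC1A5, and in 3.62% of all 35116 windows of the table. SLC1A4, SLC3A2 and SLC1A5 have further windows, of other annotated starts, without these letters. In SLC1A5 the ATF4-C/EBP match and the E-box lie in different windows. The E-box letters occurred in 3 of the 15 windows, of 3 genes, and in 7.26% of all windows. The antioxidant letters occurred in 5 of the 15 windows, of 5 genes, and in 13.3% of all windows. None of the 13 matches overlapped another. A match says only that the letters are there, and which start K562 cells use was not tested. The 4 ATF4-C/EBP matches are shown with their neighbours because ATF4 is the factor best known for these genes. SLC7A5, SLC7A6 and SLC38A2, which fell as these 4 did, had no such match in their windows, nor had SLC43A1 and SLC6A9. Each is read 5′ to 3′ along the strand of its gene, with the match in capitals; for SLC1A4 and SLC3A2 the element lies on the opposite strand. The matches of SLC3A2 and SLC7A1 lie just after the annotated start, in transcribed sequence, and that of SLC1A4 reaches to it.
SLC1A4, chr2:64989381-64989410, + strand: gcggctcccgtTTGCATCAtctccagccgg
SLC3A2, chr11:62881725-62881748, + strand: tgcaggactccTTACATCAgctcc
SLC7A1, chr13:29595663-29595692, - strand: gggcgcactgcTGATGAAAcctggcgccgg
SLC1A5, chr19:46784893-46784922, - strand: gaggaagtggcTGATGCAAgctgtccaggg

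The 250 bases before a start are given for the exchanger pair SLC7A5 and SLC3A2, for SLC7A1, and for SLC43A1, which was not lower with either drug. Capitals mark the E-box in SLC7A5 and SLC43A1 and the antioxidant letters in SLC3A2 and SLC7A1. The last 2 bases of SLC7A5, also in capitals, begin an antioxidant match that runs on past the start. The third gene with the E-box letters is SLC1A5. Of these 3 genes SLC7A5 and SLC1A5 fell with both drugs and SLC43A1 did not.
SLC7A5, chr16:87869508-87869757, - strand: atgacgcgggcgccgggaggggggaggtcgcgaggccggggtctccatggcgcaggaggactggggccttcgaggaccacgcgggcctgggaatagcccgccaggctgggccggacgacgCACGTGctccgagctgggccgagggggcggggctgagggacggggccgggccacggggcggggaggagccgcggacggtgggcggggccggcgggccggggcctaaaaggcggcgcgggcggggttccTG
SLC3A2, chr11:62881449-62881698, + strand: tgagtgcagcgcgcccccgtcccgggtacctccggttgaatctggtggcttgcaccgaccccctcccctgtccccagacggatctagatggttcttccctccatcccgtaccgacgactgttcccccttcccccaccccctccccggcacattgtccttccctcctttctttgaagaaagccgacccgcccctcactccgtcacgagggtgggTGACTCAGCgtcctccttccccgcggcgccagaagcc
SLC7A1, chr13:29595689-29595938, - strand: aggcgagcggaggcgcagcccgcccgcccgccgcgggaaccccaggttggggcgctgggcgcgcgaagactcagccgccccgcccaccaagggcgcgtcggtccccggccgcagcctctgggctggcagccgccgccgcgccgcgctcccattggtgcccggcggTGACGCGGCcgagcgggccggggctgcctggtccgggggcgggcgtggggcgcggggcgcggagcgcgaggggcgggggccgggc
SLC43A1, chr11:57515703-57515952, - strand: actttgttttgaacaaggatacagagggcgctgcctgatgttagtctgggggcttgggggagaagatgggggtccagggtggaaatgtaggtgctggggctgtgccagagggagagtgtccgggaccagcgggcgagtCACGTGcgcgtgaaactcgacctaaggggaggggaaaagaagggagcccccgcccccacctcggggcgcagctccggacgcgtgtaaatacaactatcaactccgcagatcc

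Values below are MAS5 signals, linear and in arbitrary units, that the authors had scaled to 1 common trimmed mean per array. A log2 fold change is a difference of log2(signal + 16), which understates changes of dim genes. A gene or probe set is called at an adjusted p under 0.05 (limma's moderated test, Benjamini-Hochberg over the 11696 probe sets tested), and a gene counts by its brightest probe set. The arrays differed beyond single genes: the median signal was 179 ± 12.1 with nilotinib, 142 ± 8.73 with imatinib and 119 ± 2.18 with DMSO (SD, n = 4 each), and the median of the bacterial controls was 18.2 ± 5.35, 12.2 ± 4.54 and 7.06 ± 1.31 in these groups. The signal of 28S ribosomal RNA was 4959 ± 295 with nilotinib and 4844 ± 349 with imatinib, against 1509 ± 261 with DMSO (SD, n = 4 each), with every drug array above every DMSO array. The actin control's 3′/5′ ratio was above 3.5 on nilotinib replicates 1 and 2 and imatinib replicates 5 and 6. Of the erythroleukaemia markers 7 of 7 measured passed the filter, with summed signals of 80510 to 88430 with nilotinib, 72340 to 79900 with imatinib and 41100 to 46470 with DMSO. Of markers of other cells, 1 of 5 monocyte and granulocyte markers passed the filter, LYZ (a lysozyme gene), and CD14 did not. Summed signals of these 5 were 1905 to 2492 with nilotinib, 2059 to 2748 with imatinib and 2900.0 to 3191 with DMSO. Of 4 lymphocyte markers 3 passed (CD3E, CD3D and MS4A1), with sums of 326 to 782, 225 to 631 and 505 to 617 in the same order of groups. Of 5 fibroblast markers 2 passed (COL1A1 and DCN), with sums of 700.1 to 773, 324 to 622 and 308 to 566. No marker of these 3 lists had a group mean of 0. The part of these measures in the results was not tested. The 8 falls reported next were called with both drugs after quantile normalization, cyclic loess and median centring, and without the 4 arrays of high actin ratio.

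With nilotinib 8 of the 10 transporter genes fell, and with imatinib 8, set against the same DMSO arrays. In both comparisons these were SLC3A2, SLC7A5, SLC7A6, SLC7A11, SLC7A1, SLC1A5, SLC1A4 and SLC38A2. Of all 8021 genes tested, 23.2% were called lower with nilotinib and 16.9% with imatinib. The 10 genes were chosen with earlier results of these data known. With nilotinib SLC43A1 and SLC6A9 were called higher, as were 34.3% of all genes, but SLC6A9 passed the filter only through the drug arrays. With imatinib none of the 10 rose, at an unadjusted p under 0.05 either (limma), where 21.5% of all genes were called higher. In each of the 8 genes that fell, every drug array lay below every DMSO array, for both drugs, as it did in 20.9% of all genes with nilotinib and 17.6% with imatinib. The median log2 fold change of the 10 genes was -0.94 with nilotinib and -1.11 with imatinib, where that of all genes was 0.15 and 0.09. Other solute carrier genes are a nearer comparison: of 140 tested, 24 fell and 50 rose with nilotinib, and 20 fell and 28 rose with imatinib.

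**Figure D1:**
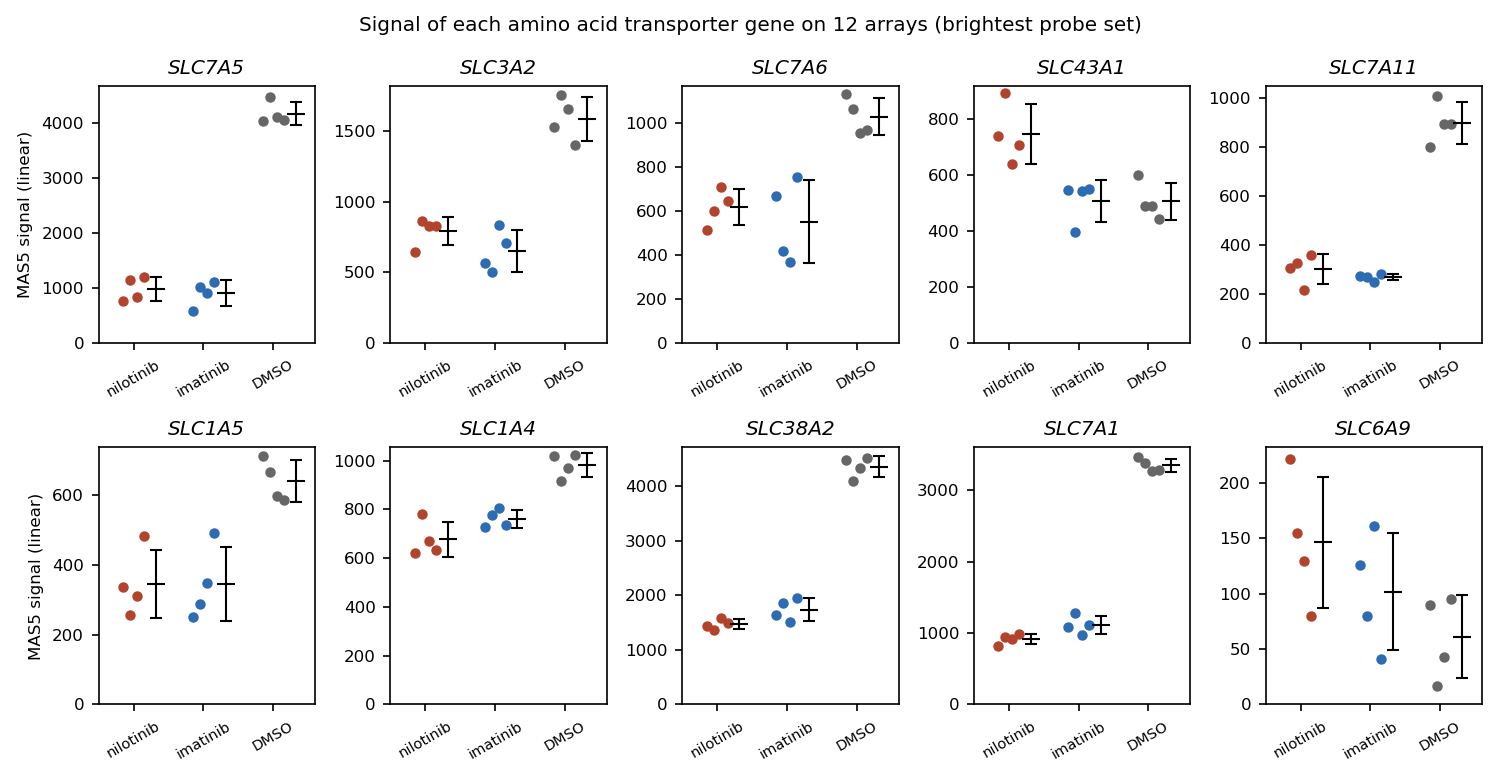
MAS5 signal (linear, arbitrary units, axes from 0) of the brightest probe set of each gene on the 12 arrays; points are arrays, and the bar beside each group is the mean ± SD (n = 4). In 8 of the 10 panels all drug arrays lie below all DMSO arrays, whereas SLC43A1 is highest with nilotinib and the groups of SLC6A9 overlap.

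SLC7A5, the light chain of the LAT1 exchanger for leucine and other large neutral amino acids, had the largest fall of the 10 with both drugs. Its signal was 755, 1146, 835 and 1204 on the nilotinib arrays, 577, 1027, 911 and 1112 on the imatinib arrays, and 4043, 4483, 4120.4 and 4052 on the DMSO arrays. The 8 drug arrays lay far below the 4 DMSO arrays and overlapped each other. The DMSO mean was 4.24 times the nilotinib mean and 4.61 times the imatinib mean. On the log2 scale the changes were -2.09 ± 0.17 with nilotinib and -2.22 ± 0.17 with imatinib (SE; adjusted p = 8.404e-09 and 6.477e-09, limma). Ranked from the strongest decrease, SLC7A5 was gene 45 of 8021 with nilotinib and gene 24 with imatinib. Its arrays were more scattered relative to their mean with the drugs, with coefficients of variation of 22.7% with nilotinib and 25.9% with imatinib, against 4.99% with DMSO. Drug arrays were also less alike over all probe sets tested. Correlations between arrays of a group were 0.931 to 0.955 with nilotinib, 0.963 to 0.970 with imatinib and 0.973 to 0.979 with DMSO.

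SLC3A2 (4F2hc, CD98) is the heavy chain that carries SLC7A5, SLC7A6 and SLC7A11 to the membrane. It had signals of 645, 865, 827 and 829.4 with nilotinib, of 566, 501, 835 and 706 with imatinib, and of 1527, 1757, 1656 and 1404 with DMSO. No drug array reached the lowest DMSO array, and nilotinib replicate 1 stood below the other 3 nilotinib arrays. In log2 terms SLC3A2 changed by -0.99 ± 0.14 with nilotinib and -1.28 ± 0.14 with imatinib (SE; adjusted p = 9.428e-06 and 6.824e-07, limma).

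The light chain was also set against the heavy chain within each array. The difference of log2(signal + 16), SLC7A5 minus SLC3A2, was 0.29 ± 0.22 within the nilotinib arrays, 0.45 ± 0.46 within the imatinib arrays and 1.39 ± 0.09 within the DMSO arrays (SD, n = 4 each). Since the probes differ in brightness, only the shift between groups can be read, and it was -1.10 with nilotinib and -0.94 with imatinib. All 4 arrays of each drug lay below all 4 DMSO arrays. Each shift had a two-sided exact permutation p of 0.0286, the smallest that 4 against 4 arrays allow, and 0.114 after Benjamini-Hochberg adjustment over the 12 such tests made, so neither passed. A few tests at that smallest p cannot pass this adjustment, so no absence of a shift can be read from it. With imatinib the single arrays ranged from 0.03 to 1.01, the highest being replicate 6.

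SLC7A11 is the light chain of the cystine-glutamate exchanger, which supplies cysteine for glutathione. It averaged 302 ± 61.1 with nilotinib, 268 ± 12.5 with imatinib and 899.7 ± 85.7 with DMSO (SD, n = 4 each). The arrays ran from 217 to 360.2 with nilotinib, from 250.4 to 280.2 with imatinib and from 799.8 to 1009 with DMSO, with a gap between every drug array and every DMSO array. Its log2 changes were -1.54 ± 0.14 and -1.69 ± 0.14 (SE; adjusted p = 6.835e-08 with nilotinib and 3.692e-08 with imatinib, limma). Its second probe set, 217678_at, also fell, with log2 changes of -1.29 and -1.64. The third and dimmest, 207528_s_at, at the 40.5th percentile of level, disagreed: it read 149 ± 44.5 with nilotinib, 54.2 ± 27.98 with imatinib and 74.2 ± 11.5 with DMSO. That is a log2 change of 0.85 with nilotinib (adjusted p = 0.0475, limma), called higher, and of -0.45 with imatinib (adjusted p = 0.345), not called. This probe set passed the filter (a signal of 80.6) only through the nilotinib arrays, so the call is no evidence of a rise. The call with nilotinib was made in 9 of the 19 alternatives in which the probe set was tested. Among the 10 others were those without nilotinib replicate 3 or DMSO replicate 9, 11 or 12 (adjusted p of 0.0607 to 0.102, limma), and quantile normalization (0.28), median centring (0.32) and cyclic loess (0.23). SLC7A11 minus SLC3A2 within arrays shifted by -0.55 with nilotinib (exact permutation p = 0.0286, 0.114 adjusted) and by -0.40 with imatinib (exact permutation p = 0.0857).

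SLC7A6 is the light chain of y+LAT2, which exchanges cationic for neutral amino acids. Its brightest probe set read 512, 598, 709 and 646 with nilotinib, 664, 417, 367 and 753 with imatinib, and 1128, 1064, 954 and 965 with DMSO. Both drug groups lay below the DMSO arrays, and the imatinib arrays were the most scattered, with 2 near the nilotinib level and 2 well below it. The log2 changes were -0.73 ± 0.18 and -0.94 ± 0.18 (SE; adjusted p = 0.00214 with nilotinib and 3.94e-04 with imatinib, limma). The 2 dimmer probe sets of the gene were not called: 203579_s_at was at -0.25 with nilotinib and -0.08 with imatinib, and 203578_s_at at 0.09 and -0.10. With the mean of the 3 probe sets the call was lost, at -0.29 with nilotinib (adjusted p = 0.193, limma) and -0.37 with imatinib (adjusted p = 0.135, limma), so the call of SLC7A6 rests on 1 probe set. The change of 203579_s_at with nilotinib did pass with quantile normalization (-0.64), median centring (-0.77) and cyclic loess (-0.63).

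SLC7A1 (CAT1) carries arginine, lysine and ornithine without a heavy chain. Its signal was 817, 941, 920.1 and 991 with nilotinib, 1082, 1283, 978 and 1110.3 with imatinib, and 3466, 3375, 3268 and 3279 with DMSO. Every drug array stood far below the DMSO arrays, which had the smallest coefficient of variation of the 10 genes, 2.78%. The log2 changes were -1.85 ± 0.09 with nilotinib and -1.58 ± 0.09 with imatinib (SE; adjusted p = 5.766e-12 and 9.963e-11, limma). Of 4 further probe sets, 212290_at was at -0.98 with nilotinib and -0.80 with imatinib and was not called, and the other 3 lay below the filter. The mean signal of 212290_at was 138 with DMSO, 75.7 with nilotinib and 81.9 with imatinib. It passed the filter (a signal of 80.6) mainly through the DMSO arrays, so its passes in alternatives are no evidence of a fall. The change of 212290_at with nilotinib passed in 7 of 20 alternatives: without nilotinib replicate 1 (-1.24, adjusted p = 0.0387) or 2 (-1.29, adjusted p = 0.0257, limma), without the high-actin arrays (-1.82, adjusted p = 0.00101), and with quantile normalization (-1.47), median centring (-1.51), cyclic loess (-1.60) and array weights (-1.18). With imatinib it passed in none of 20.

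SLC43A1 (LAT3), a facilitated carrier of leucine and other branched-chain amino acids that needs no heavy chain, did not fall with either drug. Its signal was 741, 893, 641 and 709 with nilotinib, 546, 396, 543 and 549.9 with imatinib, and 601, 489, 491 and 444 with DMSO. All 4 nilotinib arrays lay above all DMSO arrays, as in 29.8% of all genes, and above all imatinib arrays, as in 9.5%, and the imatinib and DMSO arrays overlapped. The log2 change was 0.54 ± 0.14 with nilotinib (SE; adjusted p = 0.00263, limma), and it was 0.0035 with imatinib (95% interval -0.28 to 0.29; adjusted p = 0.988, limma). The rise with nilotinib depended on the scaling: with each array centred on its median it was 0.02 (adjusted p = 0.905, limma). The median log2 change of the 11696 probe sets that passed the filter then stood at -0.37. The median signal of all probe sets was also highest on the nilotinib arrays, and its part in the rise was not tested.

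**Figure D2:**
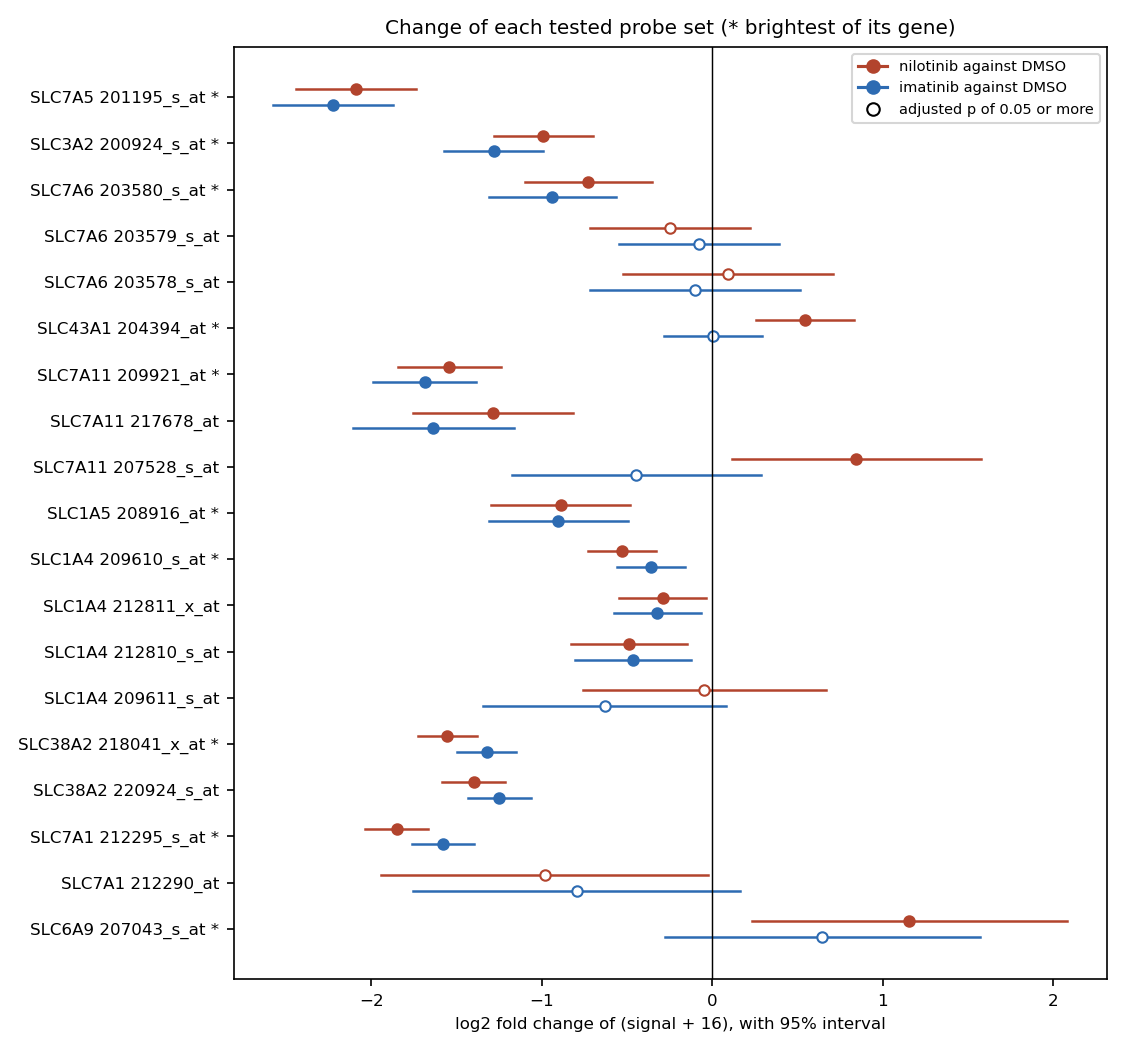
Log2 fold change of (signal + 16) with its 95% interval for the 19 tested probe sets, nilotinib above imatinib in each row; an asterisk marks the brightest probe set of a gene and open points were not called. Probe sets of SLC38A2 agree, while the dimmer ones of SLC7A6 and SLC7A11 (207528_s_at) differ from the brightest. The dimmest of SLC1A4, 209611_s_at, is at -0.05 with nilotinib and -0.63 with imatinib, with wide intervals that hold the values of the brightest.

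Of the 4 sodium-coupled carriers among the 10 genes, SLC38A2 (SNAT2), which accumulates alanine, glutamine and other small neutral amino acids, fell the most. Its signal was 1443, 1372, 1582 and 1496 with nilotinib, 1639.8, 1859, 1503 and 1949.9 with imatinib, and 4476, 4095, 4337 and 4515 with DMSO. The highest drug array stood below the lowest DMSO array by a wide margin. The log2 changes were -1.55 ± 0.08 with nilotinib and -1.32 ± 0.08 with imatinib (SE; adjusted p = 3.328e-11 and 5.247e-10, limma). The second probe set, 220924_s_at, gave -1.40 and -1.25, both called. The suffix x_at of the brightest probe set marks one that may bind related transcripts, and the second probe set does not carry it.

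SLC1A5 (ASCT2), the main glutamine carrier of many tumour lines, averaged 347 ± 97.8 with nilotinib, 345 ± 106 with imatinib and 641.5 ± 59.6 with DMSO (SD, n = 4 each). Its arrays ran from 256 to 485 with nilotinib, from 249.8 to 492 with imatinib and from 588 to 714 with DMSO. Nilotinib replicate 4 and imatinib replicate 8 were the highest of their groups and came nearest to the DMSO arrays. For SLC1A5 the log2 changes were -0.89 ± 0.19 and -0.90 ± 0.19 (SE; adjusted p = 9.075e-04 with nilotinib and 0.00129 with imatinib, limma).

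SLC1A4 (ASCT1), its relative that carries alanine, serine and cysteine, had the smallest fall of the 8. It read 623, 781, 672 and 635 with nilotinib, 726, 776, 805 and 734 with imatinib, and 1019, 916, 969.7 and 1023 with DMSO. The drug arrays overlapped each other and stayed below the DMSO arrays. The log2 changes were -0.53 ± 0.10 with nilotinib and -0.36 ± 0.10 with imatinib (SE; adjusted p = 1.498e-04 and 0.00591, limma). Of its 3 other probe sets, 212810_s_at (-0.49 and -0.46) and 212811_x_at (-0.29 and -0.32) also fell with both drugs, the last with adjusted p-values of 0.0499 and 0.0465 (limma), and 209611_s_at was not called, though with imatinib it passed without the high-actin arrays (-0.998, adjusted p = 0.0329, limma). The calls of 212811_x_at held in 9 of 24 alternatives with nilotinib and in 12 of 24 with imatinib. Both were lost with quantile normalization, no filter or no variance trend. The nilotinib call was also lost with cyclic loess, a pseudocount of 1 or a fit of the 2 groups alone, and the imatinib call without the high-actin arrays. Of single arrays left out, losses came without imatinib replicate 5 or 7 or any DMSO array, with nilotinib also without nilotinib replicate 1, 3 or 4, and with imatinib also without nilotinib replicate 3 or imatinib replicate 6 (adjusted p of 0.0512 to 0.171, limma). The call of 212810_s_at with nilotinib was lost without DMSO replicate 12 (adjusted p = 0.0560) or without the high-actin arrays (0.0509, limma in each). With imatinib it was lost without imatinib replicate 5, 7 or 8 or DMSO replicate 10, 11 or 12 (0.0549 to 0.105, limma), and with no filter (0.0516, limma). SLC1A4 minus SLC1A5 within arrays shifted by 0.36 with nilotinib (exact permutation p = 0.229) and 0.54 with imatinib (exact permutation p = 0.0857), neither past the threshold.

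SLC6A9 (GLYT1), the sodium- and chloride-coupled glycine carrier that in mice supplies heme synthesis in red cell precursors, was the dimmest of the 10, at the 42.0th percentile of level. Its signal was 221, 155, 129.6 and 79.4 with nilotinib, 126, 79.5, 160.6 and 41.1 with imatinib, and 89.2, 16.9, 43.2 and 95.4 with DMSO. The groups overlapped: nilotinib replicate 4 lay below 2 DMSO arrays. The log2 change was 1.16 ± 0.44 with nilotinib (SE; adjusted p = 0.0336, limma), called higher, and 0.65 ± 0.44 with imatinib (adjusted p = 0.275, limma), not called. SLC6A9 passed the filter only through the drug arrays, since its DMSO mean of 61.2 lay below the filter's signal of 80.6. The call of SLC6A9 with nilotinib is therefore no evidence of a rise. Of 24 other settings in which it was tested, 16 kept the call with nilotinib, and it was 0.59 with quantile normalization (adjusted p = 0.292), 0.63 with median centring (adjusted p = 0.228) and 0.55 with cyclic loess (adjusted p = 0.314, limma in each). It was also lost without DMSO replicate 10 (0.80, adjusted p = 0.125, limma), without DMSO replicate 11 (adjusted p = 0.0738) and without nilotinib replicate 1, 2 or 3 (adjusted p = 0.103, 0.0629 and 0.0509). Among probe sets of the 40th to 45th percentile of level, 34.9% were called higher with nilotinib and 7.97% with imatinib, and their median log2 change was 0.63 and 0.27.

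The share of probe sets called varied with their level. Among probe sets at or above the 90th percentile, where SLC7A5 and SLC38A2 lie, 44.5% were called lower with nilotinib and 29.9% with imatinib, but their medians were only -0.13 and -0.02. Between the 75th and 90th percentile, where SLC7A1, SLC3A2, SLC1A4, SLC7A6 and SLC43A1 lie, 30.9% and 23.8% were called lower. Between the 60th and 75th, where SLC7A11 and SLC1A5 lie, it was 17.3% and 12.9%. In the share of genes that changed as low or lower, SLC7A5 stood at 0.561% with nilotinib and 0.299% with imatinib, SLC7A1 at 0.785% and 0.910%, and SLC7A11 at 1.66% and 0.711%. SLC38A2 stood at 1.61% and 1.45%, SLC3A2 at 5.66% and 1.58%, SLC1A5 at 6.77% and 3.73%, SLC7A6 at 9.68% and 3.34%, and SLC1A4 at 15.1% and 16.8%. SLC1A4 was the only one of the 8 that more than 10% of all genes matched or undercut.

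**Figure D3:**
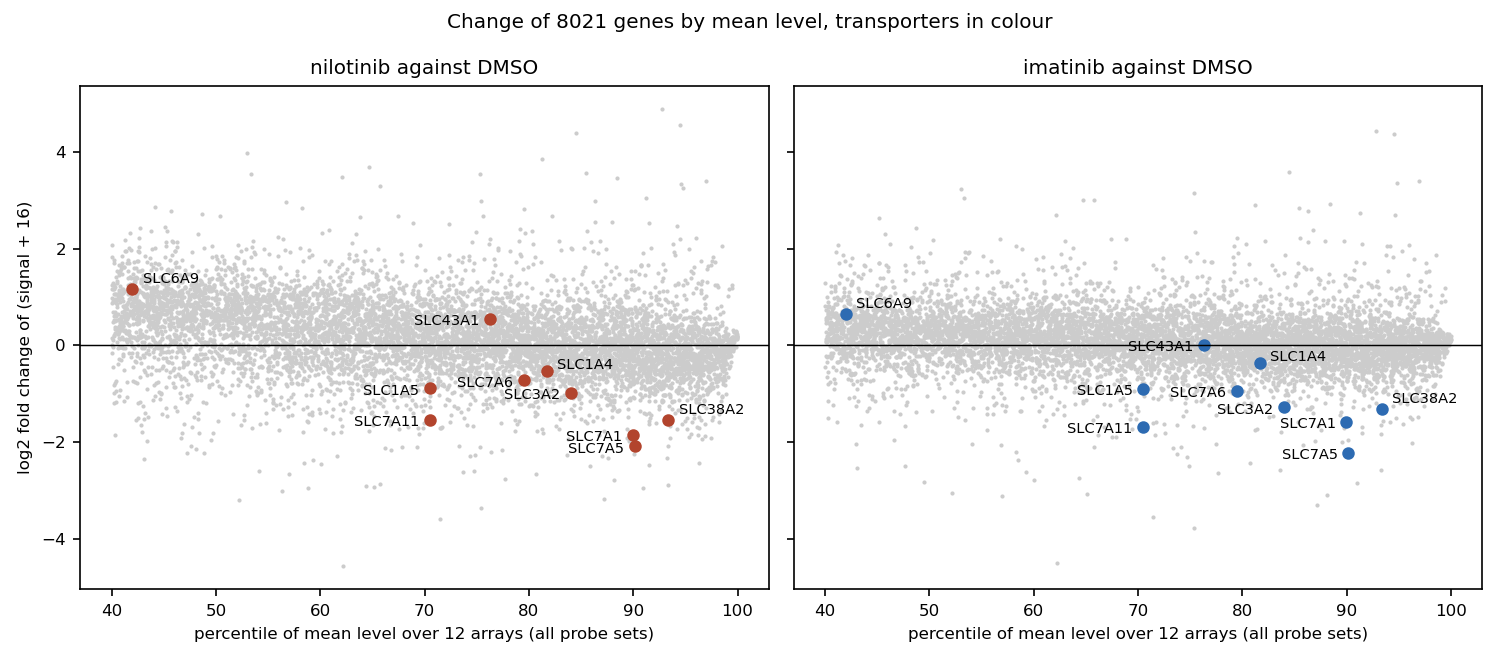
Log2 fold change of (signal + 16) against the percentile of mean level over the 12 arrays, for 8021 genes (grey) and the 10 transporter genes (coloured), with nilotinib left and imatinib right. The grey cloud leans upward at low levels with nilotinib, where SLC6A9 lies, and SLC7A5, SLC7A1, SLC38A2 and SLC7A11 lie at its lower edge.

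Nilotinib and imatinib were also compared directly, at doses that differ. By brightest probe sets SLC43A1 was the only one of the 10 called, higher with nilotinib by 0.54 ± 0.14 (SE; adjusted p = 0.0170, limma), where 5.06% of all genes were called higher and 7.46% lower. That call was lost with median centring (0.24, adjusted p = 0.190), without the 4 high-actin arrays (0.30, adjusted p = 0.298) and without imatinib replicate 6 (0.43, adjusted p = 0.0598, limma in each). None was called lower, though 2 had an unadjusted p under 0.05, SLC7A1 (-0.27, 95% interval -0.46 to -0.09, adjusted p = 0.0513) and SLC38A2 (-0.23, interval -0.40 to -0.06, adjusted p = 0.0772, limma). SLC7A1 passed without imatinib replicate 7 (-0.33, adjusted p = 0.0276), as did SLC38A2 (-0.30, adjusted p = 0.0308). For SLC7A5 the difference was 0.13 (95% interval -0.22 to 0.48), for SLC3A2 0.29 (0.0018 to 0.58, adjusted p = 0.171), for SLC7A11 0.14 (-0.16 to 0.45) and for SLC1A5 0.01 (-0.40 to 0.42). These intervals do not show that the drugs acted alike. The dimmest probe set of SLC7A11, 207528_s_at, was also called higher with nilotinib than with imatinib, by 1.29 ± 0.35 (SE; adjusted p = 0.0237, limma), with no overlap of the groups. It passed the filter only through the nilotinib arrays, so neither the call nor the lack of overlap is evidence of a difference. That call held in 14 of the 19 alternatives in which the probe set was tested. It was lost with quantile normalization, cyclic loess or a fit of the 2 drug groups alone, and without imatinib replicate 5 or 7 (adjusted p of 0.0535 to 0.0992, limma).

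**Figure D4:**
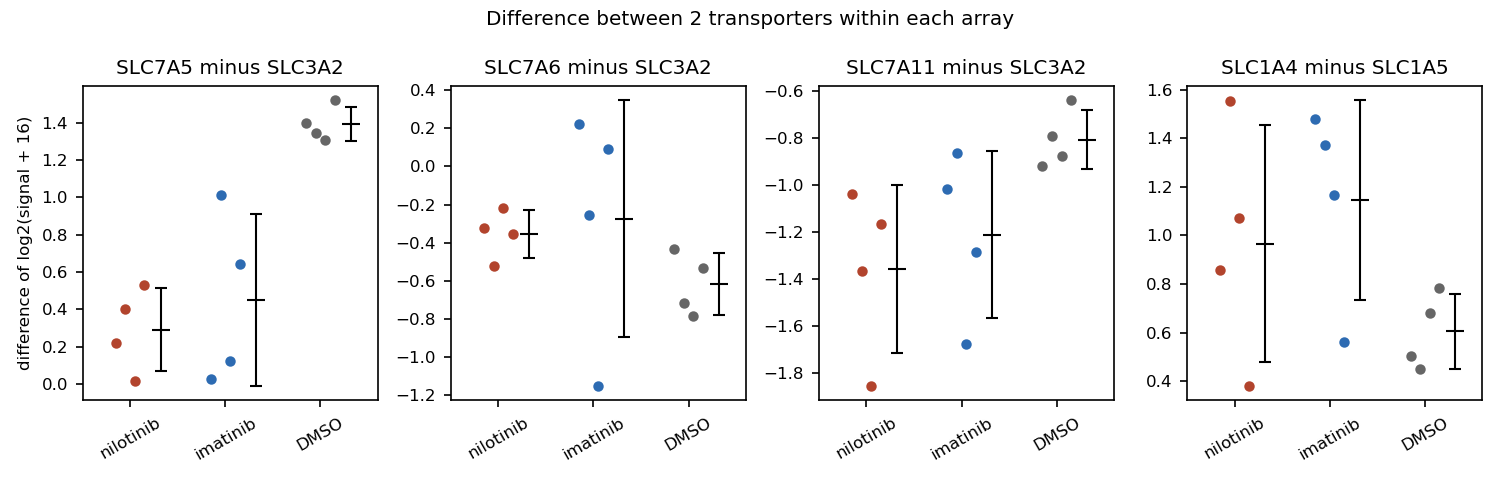
Difference of log2(signal + 16) between 2 transporter genes within each array, for the light chains SLC7A5, SLC7A6 and SLC7A11 minus the heavy chain SLC3A2 and for SLC1A4 minus SLC1A5; points are arrays and bars are mean ± SD (n = 4). Only for SLC7A5 minus SLC3A2 do both drug groups lie wholly below the DMSO group.

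Of 25 other plasma membrane amino acid transporter genes listed, 20 had a probe set naming them alone and 4 passed the filter. SLC38A1 (SNAT1), which carries much the same cargo as SLC38A2, fell with both drugs, to 189 ± 53.5 with nilotinib and 226.5 ± 31.3 with imatinib, against 855 ± 78.4 with DMSO (SD, n = 4 each). Its log2 changes were -2.13 ± 0.19 and -1.85 ± 0.19 (SE; adjusted p = 3.013e-08 with nilotinib and 3.235e-07 with imatinib, limma). SLC7A8 (LAT2), a light chain like SLC7A5, rose with both drugs, by 0.87 and 0.59, in the brighter of its 2 probe sets. SLC7A9 (0.99) and SLC1A7 (0.95) were called higher with nilotinib and not with imatinib (0.30 and 0.61), a difference between drugs of 0.69 and 0.34 that did not pass. These 3 rises were lost with median centring, at 0.35 with nilotinib and 0.37 with imatinib for SLC7A8, and at 0.47 and 0.42 with nilotinib for SLC7A9 and SLC1A7. Quantile normalization and cyclic loess also ended the rise with nilotinib of SLC7A9 (0.51 and 0.47) and of SLC1A7 (0.47 and 0.46). They ended that of SLC7A8 with imatinib too (0.42 and 0.46). Of 25 alternatives, the call with nilotinib held in 22 for SLC7A9 and 14 for SLC1A7. That of SLC7A8 held in 25 of 26 with nilotinib and in 17 of 26 with imatinib. The call of SLC1A7 was also lost without nilotinib replicate 1, 3 or 4 or DMSO replicate 9 (adjusted p of 0.0573 to 0.144, limma), and that of SLC7A8 with imatinib without imatinib replicate 5 or 7 or DMSO replicate 9, 10 or 11 (0.0504 to 0.0742).

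Genes for amino acid transport across the lysosome membrane and for the proteins that report amino acids to mTORC1 formed a further list. The lists given here were chosen with results of these data known, and their counts stand beside 23.2% of all genes lower and 34.3% higher with nilotinib, and 16.9% and 21.5% with imatinib. Of 17 such genes tested, 8 rose (47.1%), 2 fell and 7 were not called with nilotinib, and 7 rose (41.2%), 1 fell and 9 were not called with imatinib, with median log2 changes of 0.40 and 0.20. NPRL3, a subunit of the GATOR1 complex that restrains mTORC1, had log2 changes of 1.97 ± 0.15 and 1.56 ± 0.15 (SE), called in each of its 3 probe sets. SLC36A1 (PAT1), a proton-coupled carrier that exports amino acids from lysosomes, was at 1.49 ± 0.22 with nilotinib and 1.46 ± 0.22 with imatinib. SESN1, a sestrin, rose by 0.67 with nilotinib and 0.80 with imatinib. Its call with nilotinib was lost with median centring (0.15, adjusted p = 0.347, limma), and that with imatinib held in all 26 alternatives. FLCN, a partner of the Rag GTPases, rose by 1.04 with nilotinib, with 0.41 and no call with imatinib (adjusted p = 0.157, limma). FLCN passed with imatinib without imatinib replicate 8 (0.59, adjusted p = 0.0345, limma).

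Among enzymes that make or use the cargo of these transporters, 13 of 17 fell and 2 rose with nilotinib, and 14 fell and 2 rose with imatinib, with medians of -1.32 and -1.08. ASNS, asparagine synthetase, had a signal of 1059 ± 125 with nilotinib and 1303 ± 83.2 with imatinib, against 7920 ± 417 with DMSO (SD, n = 4 each), or log2 changes of -2.89 and -2.59. CTH, which makes cysteine from cystathionine, was at -2.76 with nilotinib and -2.64 with imatinib, and PHGDH, the first enzyme of serine synthesis, at -2.61 and -2.26. ALAS2, which joins glycine to succinyl-CoA in the first step of heme synthesis, rose by 4.89 with nilotinib and by 4.43 with imatinib. It was the enzyme with the largest change of the list, opposite to most of it, and the glycine carrier SLC6A9 is described above.

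Of 16 regulators known to act on such transporter genes, 11 fell with each drug, while 3 rose with nilotinib and 2 with imatinib, with medians of -0.96 and -1.15. TRIB3, a pseudokinase induced by and inhibiting ATF4, had log2 changes of -3.18 with nilotinib and -3.31 with imatinib. ATF5 was at -2.28 and -2.49, DDIT3 (CHOP) at -2.22 and -1.71, and CEBPG, a dimer partner of ATF4, at -2.16 and -1.69, all called lower. ATF4 itself and MYC, chosen here after their values were seen, had log2 changes of -0.96 ± 0.06 and -1.91 ± 0.10 with nilotinib and of -1.11 ± 0.06 and -1.25 ± 0.10 with imatinib (SE). ATF4 is controlled largely at translation, which these arrays do not measure.

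**Figure D5:**
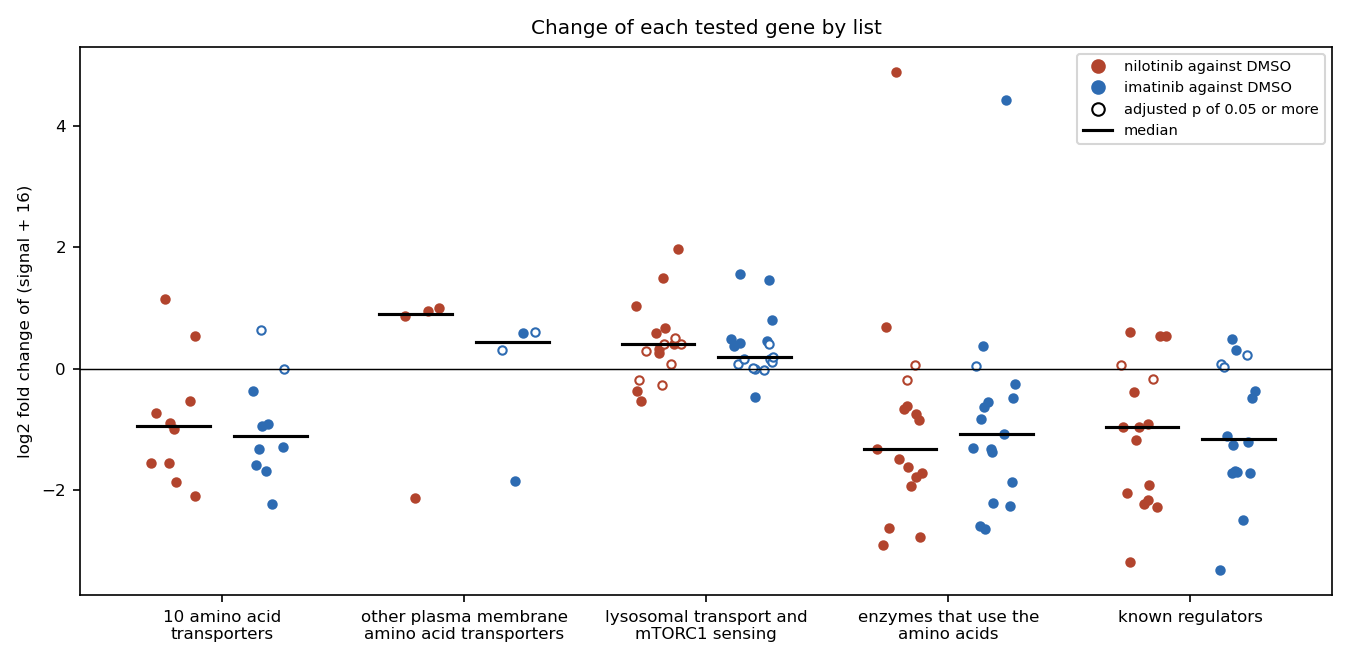
Log2 fold change of (signal + 16) of each tested gene (points, brightest probe set) by list, nilotinib left of imatinib; open points were not called and bars are medians. Medians of the 10 transporters, the enzymes and the regulators lie below 0 with both drugs, and those of the other 2 lists above 0.

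The genes with the array profile nearest to SLC7A5 were found by the root mean square difference of centred log2 values over the 12 arrays. They were MAFF (0.189), a small MAF transcription factor, PIM1 (0.268), a serine/threonine kinase, MAK16 (0.271), a factor of ribosome assembly, PHGDH (0.278) and CTH (0.282). Nearest to SLC3A2 were the TNF receptor TNFRSF1A (0.171), the lipoprotein receptor LRP8 (0.200), the adaptor GRB10 (0.2125), the ligand ANGPT1 (0.217) and SHMT2 (0.224), the mitochondrial serine hydroxymethyltransferase. SLC7A5 and SLC3A2 themselves differed by 0.551. Of the 9 other transporter genes SLC7A1 (0.354) and SLC7A11 (0.358) were the nearest to SLC7A5, and SLC1A5 (0.326) and SLC7A11 (0.349) the nearest to SLC3A2.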

How the data were processed

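Total RNA of K562 cells was measured on 12 arrays, grouped by their titles. The deposited table holds linear intensity values. Per the submitters' processing notes the authors computed these intensity values with MAS5, whose version is not given in the sources used here. Their 2% trimmed means, 500.1 to 500.2, show a common scaling, so they were used as deposited. MAS5 leaves differences of background in dim probe sets. Genes were named through the platform annotation: of 22215 probe sets 19064 name 1 gene, 1043 several and 2108 none, and only the first kind was tested. The filter left 11696 probe sets, or 8021 genes.

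limma 3.58.1 in R 4.3.3 fitted 1 mean per group to log2(signal + 16), with a variance trend and 9 residual degrees of freedom, and p-values were adjusted by Benjamini-Hochberg within each of 3 comparisons. The fit was tested on simulated data. Exact permutation tests are two-sided. The number of arrays limits the precision. Named genes were all 10 transporters, up to 4 called genes of largest change per list, and the 5 nearest profiles of SLC7A5 and SLC3A2. The transporters and lists were chosen with earlier results of these data known. Alternatives covered the pseudocount, filter, normalization, handling of several probe sets, variance model, array weights, groups fitted, arrays of high actin ratio and each array left out. Figures used matplotlib 3.10.9 in Python 3.11.15.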

Additional observations from a re-analysis of the deposited data

Results flagged for a closer look

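Of 78 sets of 4 arrays examined (each of the 22 probe sets and each of 4 differences between genes within arrays, per group), 4 held an array far from its other 3, judged by its gap to the nearest array over the whole range (Dixon's critical value 0.829). Chance alone gives about 1 in 20. For SLC43A1 imatinib replicate 6 was the lowest at a signal of 396, a ratio of 0.96, and its removal ended the call of nilotinib against imatinib (0.43, adjusted p = 0.0598, limma). For SLC3A2 nilotinib replicate 1 was the lowest at 645 (ratio 0.845), and without the array SLC3A2 was still called lower. Imatinib replicate 6 was also the highest for SLC38A2 probe set 220924_s_at at 1633 (ratio 0.898) and the lowest for SLC7A6 probe set 203578_s_at at 52.3 (ratio 0.942).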

How the results depend on the processing

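The falls of SLC7A5, SLC3A2, SLC7A11, SLC1A5, SLC1A4, SLC38A2 and SLC7A1 were called in all 26 alternatives tried against DMSO with each drug, and that of SLC7A6 in 25, the exception being the mean of its probe sets. No result changed direction past the threshold. The 8 genes lower were 8 with any 1 array left out, for both drugs.

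The 2 genes higher with nilotinib were 1 with the 60th percentile filter, quantile normalization, cyclic loess or without the arrays of high actin ratio, 0 with median centring, and 1 to 2 with 1 array left out. Between the drugs, 1 gene was lower with a pseudocount of 64, the 60th percentile filter or 1 probe set per gene (SLC7A1 in each), 3 with median centring and 0 to 2 with 1 array left out. Genes higher were 0 with median centring or without the arrays of high actin ratio, 2 with the mean of probe sets (SLC43A1 and SLC7A11) and 0 to 1 with 1 array left out. The cause of these differences was not tested.

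Over all probe sets tested, median centring moved the counts most. With nilotinib 5519 were lower and 1130 higher (2546 and 3877 as reported), so 83.0% of calls were lower in place of 39.6%, and this share was 53.0% with quantile normalization and 52.5% with cyclic loess. With imatinib 3107 were lower and 1095 higher (1823 and 2340.0 as reported), 73.9% in place of 43.8%. Between the drugs 3446 were lower and 95 higher (779 and 558), 97.3% in place of 58.3%. The 60th percentile filter, which tests fewer probe sets, left 2503 higher with nilotinib. Between the drugs 470 were lower with no variance trend, 344 higher with array weights, and 380 lower and 136 higher without the arrays of high actin ratio. With 1 array left out the higher count between the drugs ran from 272 to 524.

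No paired analysis was possible because the replicate numbers are not shared between groups. MAS5 detection calls were not used here, so dim probe sets such as those of SLC6A9 and 207528_s_at of SLC7A11 have no measured distance from background.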
